A study of Mus musculus with 6 samples.

Results

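Myc, the dimerisation partners and antagonists of its network, and nucleolar genes that build ribosomes were followed in mouse pancreatic duct cells after a hairpin against Atoh8. The 48 members, 7 of the Myc network and 41 of ribosome biogenesis, were chosen by name, with earlier results of these data known. Of these, 46 had a probe set annotated with exactly 1 symbol, among 18193 genes measured in all, and each gene was read on its brightest such probe set. Npm3 and Mrto4 had no probe set of that kind and were left out.

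Expression was measured on 6 Affymetrix arrays of the cell line mPAC L20, a mouse pancreatic duct line. Neurog3, which starts endocrine differentiation in the pancreas, was expressed in every culture from an adenovirus with the CMV promoter, so no group lacked it. Before that virus, 3 cultures received an adenovirus with a scrambled hairpin (shControl) and 3 received one with a hairpin against Atoh8 (shAtoh8), a basic helix-loop-helix factor. The multiplicity of infection was 40 for each virus, and the cells were cultured for a further 44 to 46 h. The replicates were independent experiments, and a replicate number names 1 shControl and 1 shAtoh8 culture. All levels below are log2 signals, and all differences are shAtoh8 minus shControl on that scale.

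Myc is a transcription factor that binds DNA as a dimer with Max, at the sequence called the E-box, and raises the expression of many genes of growth. Mxd1, Mxd3, Mxd4 and Mxi1 also pair with Max and oppose Myc at the same sequence. Genes for ribosome assembly are among the best known targets of Myc: RNA polymerase I copies the rDNA in the nucleolus, small nucleolar particles guide the modification of the transcript, and separate sets of factors assemble the small and the large subunit.

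The array medians lay between 5.49 and 5.56. The 18 hybridisation spike probe sets averaged 9.90 on the shAtoh8 replicate 2 array and 10.24 to 10.48 on the others. Atoh8 itself read 8.75, 8.29 and 7.52 in shControl and 7.83, 7.90 and 7.37 in shAtoh8, a difference of -0.49 ± 0.30 (SE) that did not pass the test (limma adjusted p = 0.573, and 0.157 with the replicate number as a block). The duct keratins Krt8, Krt18 and Krt19 read 13.85, 13.79 and 13.43 in shControl, and the adhesion gene Epcam fell with the replicate block (-0.73, adjusted p = 0.0463; 0.145 without it). The duct genes Cldn4 and Onecut1 read 5.20 and 5.12, near the array medians. Of 10 measured duct markers, 7 were negative (70%, against 46.9% of all genes). At an unadjusted p under 0.05, 3 of the 10 were lower and 0 higher, against 8.82% and 8.72% of all genes. No marker of fibroblasts, acinar cells, endocrine cells or immune cells passed limma in either fit (0 of 34 measured). Over all genes 0.638% were lower and 0.517% higher without the block. Of the 34, 1 had an unadjusted p under 0.05. The median level of the 34 was 5.03, below every array median, so for many of them a fall could hardly be seen. These counts therefore do not show that the mix of cells was the same.

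The E-box was looked for in RefSeq promoter windows (GRCm38.p6) that hold 250 bases before and 50 after the start of the gene, and 42 of the 48 members had such a window; the others were Myc, Fbl, Npm1, Rrp12, Bop1 and Rrs1. The letters CACGTG, which read the same on both strands, stood before the start site in 3 members, 7.14% of the 42, against 8.73% of the 14452 measured genes with a window. Over the whole window, a search added after the first count was seen, 10 members held them, or 23.8% against 10.2%. The other 7 were Max, where the letters cross the start site, and Ltv1, Utp20, Pes1, Pno1, Tsr1 and Wdr43, where they lay 3 to 38 bases into the transcript. Both counts describe letters and show no binding. The 3 promoters with the letters before the start are shown because they cover different results below: Imp4 and Mxd4 had the largest positive differences of all members, and Nop2 had a small negative one. Capitals mark the E-box, and each run reads 5′ to 3′ on the strand of the gene.
Imp4, chr1:34439678-34439743, plus strand: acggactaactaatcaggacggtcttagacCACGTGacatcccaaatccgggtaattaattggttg
Mxd4, chr5:34187894-34187959, minus strand: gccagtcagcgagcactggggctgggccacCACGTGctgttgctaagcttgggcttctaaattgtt
Nop2, chr6:125131793-125131858, plus strand: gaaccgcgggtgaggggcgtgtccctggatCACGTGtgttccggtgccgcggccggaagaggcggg
The motif begins 121, 219 and 60 bases before the start of Imp4, Mxd4 and Nop2.

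Myc was lower on all 3 shAtoh8 arrays, while most ribosome biogenesis genes differed little. Of the 46 measured members, 1 fell past the threshold in limma (adjusted p under 0.05 over all probe sets), the large subunit factor Rrs1, and 0 rose. Over all genes, 0.638% were lower and 0.517% higher by that rule. At an unadjusted p under 0.05, 6 members were lower and 4 higher, against 8.82% and 8.72% of all genes. With the replicate number as a block, 2 fell, Myc and Rrs1, and 1 rose, the small subunit factor Imp4, against 2.75% lower and 1.92% higher over all genes. In bulk RNA, fewer cells that express a gene and less of its RNA per cell cannot be told apart.

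Across replicates 1, 2 and 3, Myc read 8.94, 9.10 and 10.11 with the control hairpin and 8.30, 8.20 and 8.62 with the Atoh8 hairpin. The shControl replicate 3 array stood about 1 log2 unit above the other controls, and even the lowest control lay above the highest shAtoh8 array. The group means of 9.38 ± 0.64 and 8.37 ± 0.22 (SD, n = 3 each) gave a difference of -1.01 ± 0.30 (SE; 95% interval -1.70 to -0.31), or 2.01-fold lower. It did not pass without the block (limma adjusted p = 0.181) and fell with it (0.0384). The pair differences were -0.63, -0.90 and -1.49 for replicates 1, 2 and 3. Without shControl replicate 3 the difference was -0.64 (adjusted p = 0.175), and with the block it was -1.19 without the arrays numbered 1 (adjusted p = 0.110) and -0.77 without those numbered 3 (0.131). In each of those fits of 4 arrays with the block, 0 of all 18193 genes passed. Without the arrays numbered 2, the Myc difference with the block was -1.06 (limma adjusted p = 0.0310), and 966 of all genes passed.

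**Figure D1:**
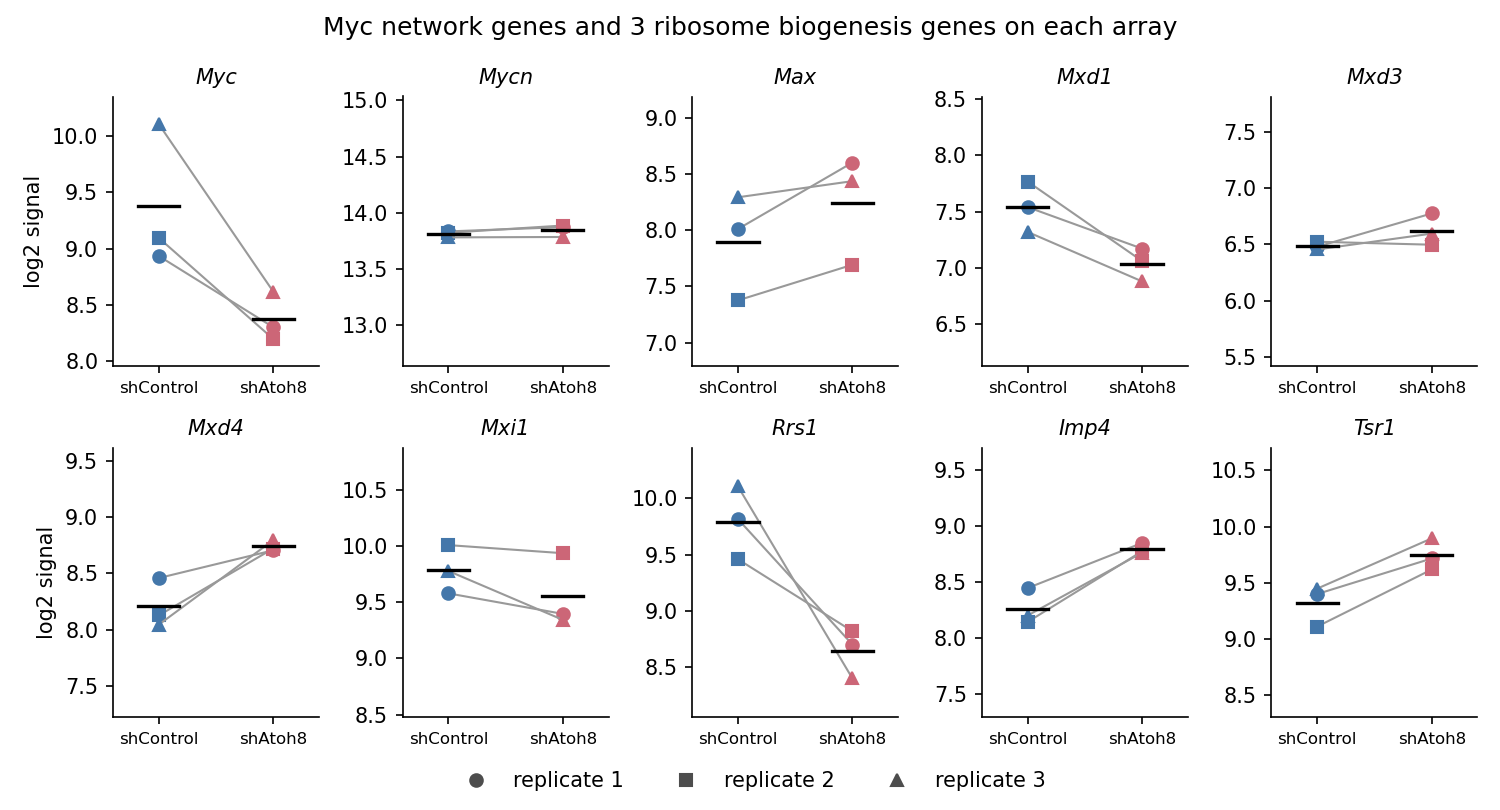
Log2 signal of the 7 Myc network genes and of Rrs1, Imp4 and Tsr1 on each array; grey lines join the shControl and shAtoh8 arrays of a replicate number, symbols give the number, and black bars are group means of 3. All vertical axes span the same range; Myc and Rrs1 run down in all 3 pairs, Mxd4, Imp4 and Tsr1 run up, and Mycn is flat.

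Mycn, the paralogue of Myc, read 13.84, 13.82 and 13.78 in shControl and 13.87, 13.89 and 13.79 in shAtoh8, a difference of 0.04 ± 0.08 (SE, adjusted p = 0.914). Those values lie close to the top of the deposited scale. A second Mycn probe set read 8.70, 8.35 and 7.90 against 9.00, 8.83 and 8.55, a difference of 0.48 ± 0.21 (adjusted p = 0.378, and 0.0582 with the block), and the remaining set differed by 0.09. All 3 sets of Mycn had a positive sign and none passed, so its size depends on the probe set read.

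Max, the shared partner, read 8.01, 7.37 and 8.29 in shControl and 8.60, 7.69 and 8.43 in shAtoh8. It was higher in all 3 pairs (0.59, 0.32 and 0.14), but the groups overlapped and the difference of 0.35 ± 0.30 (SE) did not pass (adjusted p = 0.712, and 0.154 with the block). Max varied more between replicate numbers than between hairpins.

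The antagonists of Myc did not share a direction. Mxd4 read 8.46, 8.13 and 8.04 in shControl and 8.70, 8.72 and 8.79 in shAtoh8, and the groups did not overlap. Its difference was 0.53 ± 0.12 (SE), 1.45-fold higher (adjusted p = 0.0997 without the block, 0.0688 with it), and its 4 probe sets were all positive, from 0.26 to 0.53. Mxd1 went the other way: it read 7.54, 7.77 and 7.32 in shControl and 7.17, 7.06 and 6.88 in shAtoh8, also with the groups apart. The difference was -0.51 ± 0.13 (adjusted p = 0.148, and 0.0527 with the block), and its 3 probe sets were all negative.

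Mxi1 differed by -0.23 ± 0.18 (SE, adjusted p = 0.687), with overlapping groups. For Mxd3 the sign depended on the probe set. The brightest differed by 0.14 ± 0.09 (adjusted p = 0.627), while a slightly dimmer set read 6.87, 6.56 and 6.56 in shControl and 5.88, 6.18 and 6.04 in shAtoh8, a difference of -0.63 ± 0.12 (adjusted p = 0.0739). Those values do not overlap between the groups, and the mean of the 3 Mxd3 probe sets was -0.26 (adjusted p = 0.244). Of the 32 members with several probe sets, 21 had the same sign on all and 11 did not.

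Genes of the wider network gave few calls. Among 6 other genes of the Max and Mlx network, none passed in either fit (0; 1 at an unadjusted p under 0.05 without the block): Mycl, another Myc paralogue, read -0.51 ± 0.11 (SE, adjusted p = 0.0853) and Mlx, a Max-like partner, 0.28 ± 0.14 (0.470). Of 15 genes that turn Myc protein over or act as its cofactors, 1 fell with the block, where 2.75% of all genes did. This was the AAA+ ATPase Ruvbl2 (-0.51 ± 0.09, limma adjusted p = 0.0484, and 0.0547 without the block). Of the 15, 11 were negative (73.3%, against 46.9% of all genes). At an unadjusted p under 0.05 without the block, 4 were lower and 1 higher, against 8.82% and 8.72% of all genes.

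Rrs1, which is needed to assemble the large subunit, had the largest difference of all members. It read 9.82, 9.46 and 10.11 in shControl and 8.70, 8.82 and 8.40 in shAtoh8, so every shAtoh8 array lay below every control. From 9.79 ± 0.32 to 8.64 ± 0.22 (SD, n = 3 each), Rrs1 fell by 1.15 ± 0.18 (SE; 95% interval of the difference -1.58 to -0.73), or 2.23-fold, with a limma adjusted p of 0.0478, and 0.0395 with the block. Its second probe set fell as well (-1.08 ± 0.14, adjusted p = 0.0316). The adjusted p lies close to the threshold: whichever of the 6 arrays was left out, the call was lost (0.0644 to 0.134), and the difference ranged from -1.32 to -0.998. Those 6 fits called between 0 and 117 of all genes, against 210 with every array.

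The other 13 measured large subunit members ran from -0.35 to 0.19 on their brightest probe sets, and none of these passed in either fit. Noc2l, a nucleolar factor of 60S assembly, had the next most negative difference. It read 8.33, 8.29 and 8.74 in shControl and 8.05, 8.02 and 8.24 in shAtoh8 (-0.35 ± 0.14 SE, adjusted p = 0.317), and its second probe set was at 0.01. Bop1, which forms the PeBoW complex with Pes1 and Wdr12, was at the other end. It read 9.46, 9.22 and 9.66 in shControl and 9.58, 9.58 and 9.74 in shAtoh8, higher in all 3 pairs but with overlapping groups (0.19 ± 0.13, adjusted p = 0.610). On the brightest probe sets Pes1 and Wdr12 differed by 0.03 and -0.05. A dimmer set of Pes1 read 6.83, 6.56 and 6.24 in shControl and 7.17, 7.10 and 6.86 in shAtoh8 and rose with the block (0.50, adjusted p = 0.0482; 0.223 without it), and a dim set of Bop1 differed by 0.23. Besides Rrs1 and Noc2l, Nip7 and Ddx18 had groups that did not overlap, both lower (-0.18 and -0.17), and Noc3l was the member without overlap on the higher side (0.15). These were named after their values were seen. Ebna1bp2, another factor of 60S assembly, read -0.24, and the nucleostemin gene Gnl3, Nop16, Rrp1b, Ppan and the rRNA methyltransferase Nop2 lay between -0.19 and -0.06.

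Small subunit genes were split evenly in sign, with 6 of 12 negative and a median difference of 0.00. Imp4, a component of the U3 particle in the small subunit processome, read 8.45, 8.14 and 8.20 in shControl and 8.85, 8.77 and 8.76 in shAtoh8. The shAtoh8 arrays lay close together and above every control. Imp4 rose with the replicate block by 0.53 ± 0.09 (SE), 1.44-fold (adjusted p = 0.0385), and missed the threshold without it (0.0695). Its 3 probe sets were all positive (0.53, 0.45 and 0.38). With the block and without the arrays numbered 1, 2 or 3 the difference was 0.59, 0.48 and 0.51, and the call was lost (adjusted p = 0.138, 0.0651 and 0.199). In those fits 0, 966 and 0 of all 18193 genes passed.

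Tsr1, a GTPase-like factor of late 40S maturation, read 9.40, 9.11 and 9.45 in shControl and 9.72, 9.62 and 9.90 in shAtoh8. Its difference was 0.42 ± 0.12 (SE, adjusted p = 0.171, and 0.0566 with the block), without overlap. Pno1, which acts with Nob1 at the same late stage and was named after its values were seen, read 10.27, 10.16 and 10.25 against 10.39, 10.36 and 10.57, again without overlap (0.21 ± 0.09, adjusted p = 0.357). The other 9 small subunit members ran from -0.16 to 0.18, and all had overlapping groups. The large scaffold proteins Utp20 and Heatr1 of the processome read -0.16 and -0.11, and its components Wdr43, Nop14, Noc4l and Rrp9, the last a protein of the U3 particle, -0.15, -0.12, -0.09 and -0.02. The later 40S factors Ltv1, Rrp12 and Bysl read 0.03, 0.08 and 0.18. Each of these 9 differences was smaller than the SD of that gene over the control arrays.

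RNA polymerase I and its helper gave no call. Polr1c, a subunit shared by polymerases I and III, read 10.02, 10.07 and 10.14 in shControl and 9.77, 9.97 and 9.70 in shAtoh8, lower without overlap (-0.27 ± 0.10 SE, adjusted p = 0.270), and its second probe set gave -0.30. The catalytic subunit Polr1a (-0.11 ± 0.15), Polr1b (-0.01 ± 0.10) and the nucleolar helicase Ddx21 (0.07 ± 0.18) had overlapping groups. In a list of 10 other measured genes of rDNA transcription, 3 were negative (30%, against 46.9% of all genes) and the median was 0.21. At an unadjusted p under 0.05, 1 was lower and 3 higher, against 8.82% and 8.72% of all genes. In limma 1 of the 10 rose, where 0.517% of all genes did: Taf1c, a subunit of the promoter selectivity factor SL1. Taf1c read 7.33, 7.25 and 7.20 in shControl and 7.74, 7.84 and 7.92 in shAtoh8, a difference of 0.57 ± 0.09 (SE, adjusted p = 0.0414, and 0.0384 with the block). Its call was also lost whichever of the 6 arrays was left out (0.0784 to 0.161), with a difference of 0.53 to 0.62, and with a trend and robust variance model (0.0555).

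The 3 C/D and 3 H/ACA proteins of the small nucleolar particles had negative differences, none of which passed. Among the proteins of the H/ACA particles, which guide pseudouridylation, the pseudouridine synthase Dkc1 had the largest. It read 9.56, 9.35 and 9.81 in shControl and 9.11, 9.23 and 9.23 in shAtoh8, where all lay below the controls (-0.39 ± 0.12 SE, adjusted p = 0.215, and 0.129 with the block). The 3 probe sets of Dkc1 were all negative. Gar1 (-0.22 ± 0.12) and Nhp2 (-0.04 ± 0.10) had overlapping groups. Among the proteins of the C/D particles, which guide 2′-O-methylation, the methyltransferase Fbl differed by -0.06 ± 0.10 and Nop56 by -0.14 ± 0.19.

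Nop58, the partner of Nop56, had a difference set by 1 array. It read 9.79, 9.47 and 9.85 in shControl and 9.91, 8.14 and 9.77 in shAtoh8, so the replicate 2 array, the array with the weaker spikes, lay more than 1 log2 unit below the others. The difference was -0.43 ± 0.44 (SE, adjusted p = 0.772) with all arrays and 0.14 without that array. The part of that array's lower spike signal in the Nop58 value was not tested.

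The abundant nucleolar proteins Ncl and Npm1 were lower without overlap but by small amounts. Ncl read 12.33, 12.38 and 12.60 in shControl and 12.33, 12.03 and 12.30 in shAtoh8 (-0.22 ± 0.12 SE, adjusted p = 0.501), and 2 of its 5 probe sets were positive. Npm1 differed by -0.10 ± 0.07 (adjusted p = 0.684). Nolc1, a chaperone of the small nucleolar particles, differed by -0.05 ± 0.22 with overlapping groups.

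Over the 39 measured ribosome biogenesis members, 29 were negative (74.4%, against 46.9% of all genes), and the median difference was -0.11, against 0.01 over all genes. The groups did not overlap in 8 members that were lower and 4 that were higher, where 11.4% and 12.6% of all genes did so. In 37 of the 39 (94.9%) the 95% interval of the fit without the block lay within 1 log2 unit of 0, as in 94.9% of all genes. In 26 (66.7%) it lay within 0.5, against 73.7% of all genes. The exceptions to the first limit were Rrs1 and Nop58. The Myc difference of -1.01 lies outside those 37 intervals by their definition, and they leave room for smaller differences. Its own 95% interval, -1.70 to -0.31, also holds smaller values. Most of the 37 reach into it, the furthest those of Ebna1bp2 (to -0.69), Dkc1 (to -0.68) and Noc2l (to -0.67).

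**Figure D2:**
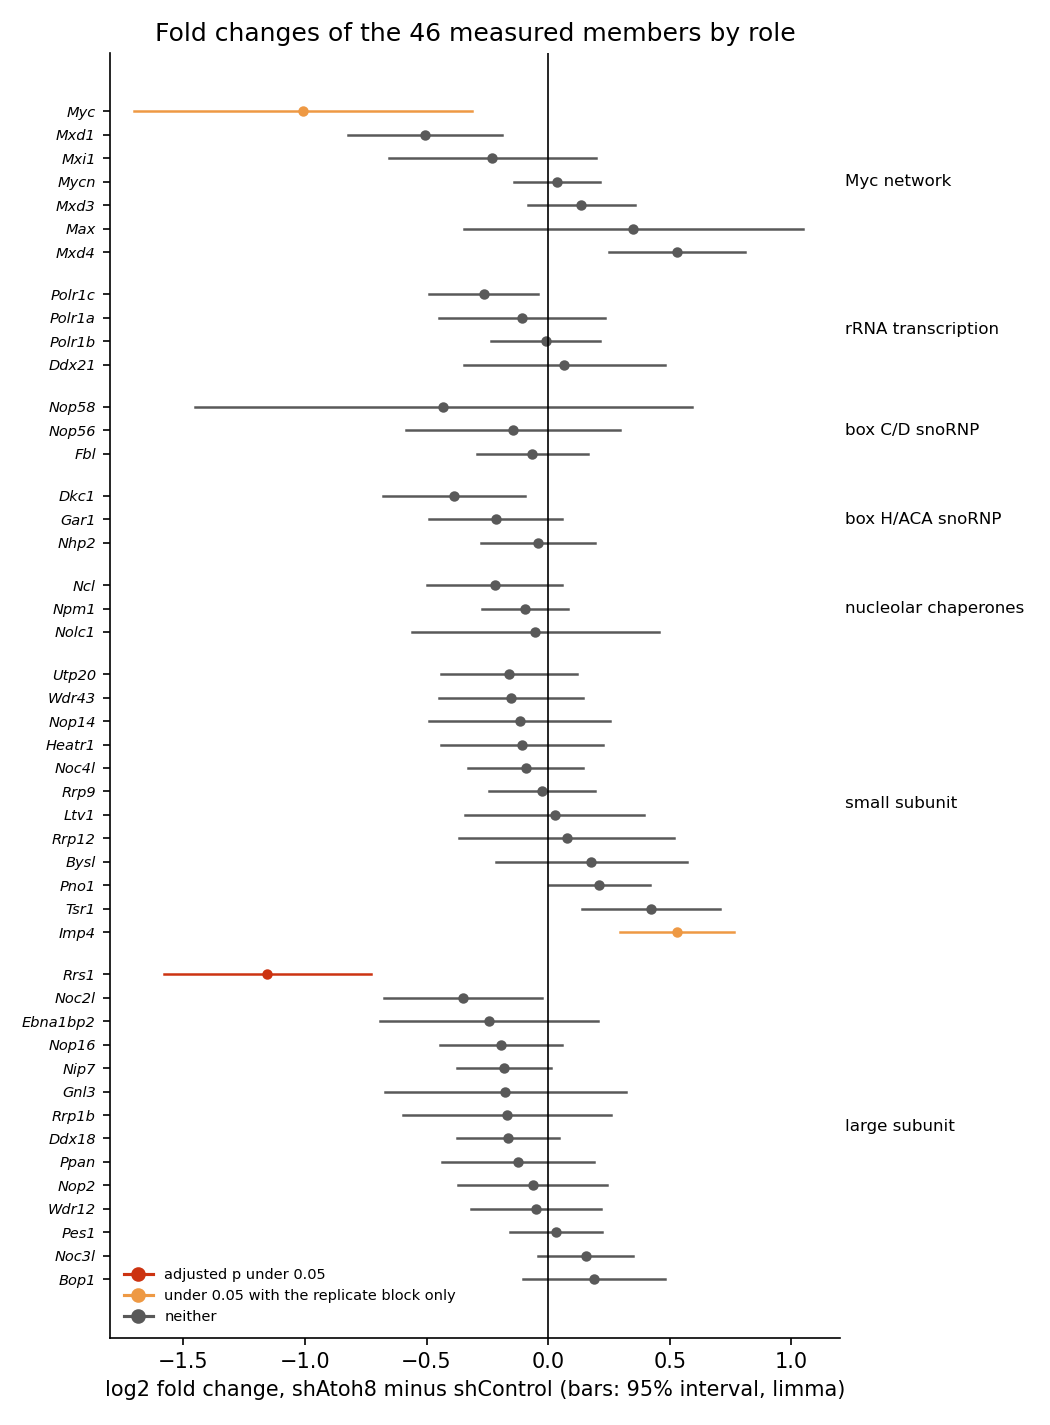
Log2 fold change of each of the 46 measured members, shAtoh8 minus shControl, with its 95% interval from limma without the replicate block. Members are ordered by value within each role. Rrs1 (red) passed the threshold, Myc and Imp4 (orange) passed with the replicate block alone, and most other intervals include 0.

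The biogenesis genes varied more between the control cultures than between hairpins, and they did so together. For replicates 1, 2 and 3 the mean of the 39 members was 9.23, 9.01 and 9.42 with the control hairpin, and 9.15, 9.07 and 9.17 with the Atoh8 hairpin. The shControl arrays spread widely (SD 0.20) around 9.22, while the shAtoh8 arrays stayed close together (SD 0.05) around 9.13, inside the range of the controls. Among the controls, 37 of the 39 members were highest in replicate 3 (31.8% of all genes were) and 36 were lowest in replicate 2 (30.7%). Between shControl replicates 3 and 2 the median difference was 0.43, several times the size of the median between hairpins. In 32 of the 39 the SD was larger in shControl than in shAtoh8, against 52.2% of all genes. Gnl3 shows it: it read 8.88, 8.70 and 9.57 in shControl and 8.80, 8.85 and 8.97 in shAtoh8. Rrp12 read 6.97, 6.54 and 7.34 against 6.94, 7.01 and 7.13, and Nop56 read 9.42, 8.89 and 9.67 against 9.26, 9.10 and 9.19. In each of these the control arrays ran above and below the shAtoh8 arrays. Imp4 and Pno1 were the members not highest in shControl replicate 3, and Polr1c, Ncl and Npm1 those not lowest in shControl replicate 2. This pattern was noticed in the data and is a description of these cultures. Gnl3, Rrp12 and Nop56 were picked as examples after their values were seen. Members measured on the same array share that array's labelling and hybridisation, and the part of those in the pattern was not tested.

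Genes of ribosome assembly that were not members varied the same way. Of 80 such genes, 59 were highest in shControl replicate 3 (73.8%) and 73 lowest in shControl replicate 2 (91.2%). Between hairpins, 41 were negative (51.2%, against 46.9% of all genes) with a median of 0.00. With the replicate block 1 rose, where 1.92% of all genes did: the small subunit processome gene Wdr46 (0.47 ± 0.08 SE, adjusted p = 0.0409, and 0.0905 without the block). None passed limma without the block. At an unadjusted p under 0.05, 7 were lower and 4 higher, against 8.82% and 8.72% of all genes.

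Set beside Myc, most biogenesis members shared its high value in shControl replicate 3, while their mean differed far less between hairpins. Of the 39, 14 were lower and 5 higher in all 3 pairs, against 3916 and 4359 of all 18193 genes. Myc differed by -0.63, -0.90 and -1.49 in pairs 1, 2 and 3, Rrs1 by -1.12, -0.64 and -1.71, and the mean of the 39 by -0.08, 0.05 and -0.26. Pair 3 thus gave the most negative value for each, and it did so in 33 of the 39 members (84.6%, against 32.6% of all genes). Every pair 3 difference subtracts shControl replicate 3, where Myc and 37 of the 39 were highest among the controls. The count of 33 is therefore not separate from that reading. In pair 2, where Myc was 0.90 lower, the mean of the members was slightly higher in shAtoh8. The full order of the pairs was that of Myc in 3 of the 39, and in 2239 of all 18193 genes. Within shControl, Myc was lowest in replicate 1 and the members in replicate 2. With 3 pairs and 2 groups the arrays are not independent points, so no correlation is given.

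**Figure D3:**
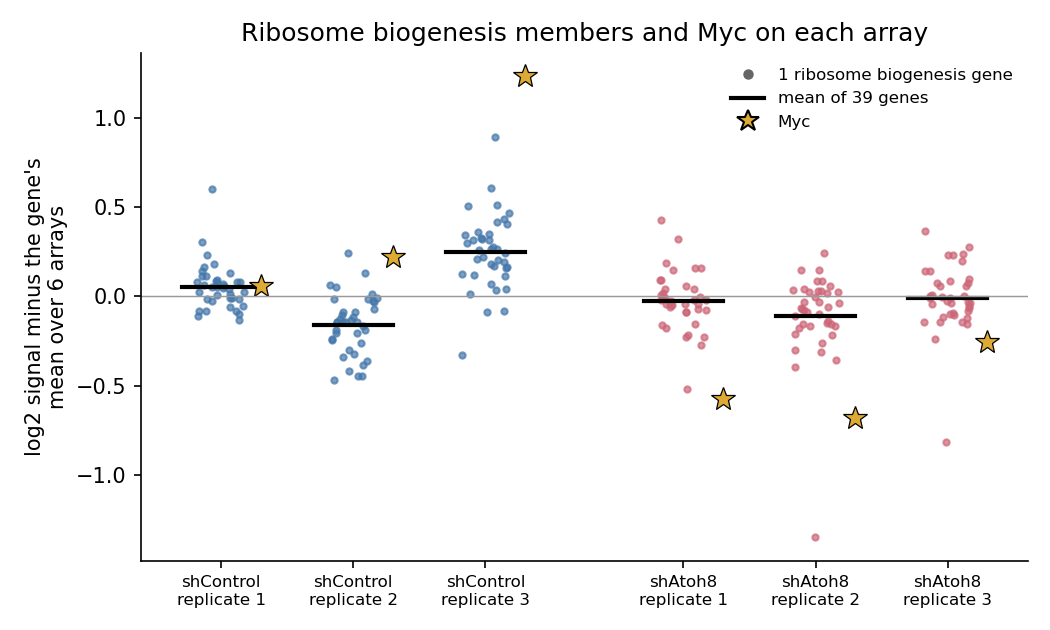
Log2 signal of each of the 39 measured ribosome biogenesis members minus its mean over the 6 arrays (dots), their mean on each array (black bars) and Myc centred the same way (stars). The members sit highest on shControl replicate 3 and lowest on shControl replicate 2, and Myc lies below 0 on all 3 shAtoh8 arrays while the mean of the members stays near 0.

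The count of negative members, 32 of 46 with every array, moved with the control array left out. Without shControl replicate 1, 30 were negative and the median was -0.10. Without replicate 2, the lowest control for most biogenesis members, 36 were negative and the median was -0.21. Without shControl replicate 3, the highest for most of them, 20 were negative and the median moved from -0.10 to 0.02. With the block and without both arrays numbered 3, 21 were negative and the median was 0.02. Rrs1 and Myc stayed negative in both fits that left out shControl replicate 3 (Rrs1 -0.998 and -0.88, Myc -0.64 and -0.77). By pair, the median over the 46 members was -0.07, 0.09 and -0.27.

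Among 39 measured targets of Myc outside the nucleolus, 30 were negative (76.9%, against 46.9% of all genes) with a median of -0.12. None passed without the block. At an unadjusted p under 0.05, 8 were lower and 1 higher, against 8.82% and 8.72% of all genes. With the block 2 fell, where 2.75% of all genes did: Hk2, the glycolytic hexokinase (-0.63 ± 0.10 SE, adjusted p = 0.0339), and Nampt, which makes the precursor of NAD (-0.70 ± 0.12, adjusted p = 0.0395). Hk2 read 10.22, 10.69 and 10.58 in shControl and 9.57, 10.24 and 9.80 in shAtoh8, with a narrow overlap. Both genes have other regulators as well.

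Ribosomal protein genes themselves differed little. Of 79 such genes, 47 had a single-symbol probe set; these genes have many near-identical pseudogenes, so their signal may be shared with copies. Among these 47, 41 were negative (87.2%, against 46.9% of all genes) with a median of -0.04 and a range of -0.33 to 0.04. None passed in either fit. At an unadjusted p under 0.05 without the block 1 was lower, where 8.82% of all genes were. Rps28 had the smallest p: it read 14.07, 14.09 and 14.03 in shControl and 13.80, 13.80 and 13.59 in shAtoh8 (-0.33 ± 0.09 SE, adjusted p = 0.148). Rpl22 differed by -0.20 ± 0.10 (adjusted p = 0.469). In shControl, 21 of the 47 were highest in replicate 3 (44.7%), a smaller share than of the assembly genes; that difference was not tested.

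Proliferation genes moved with the hairpin at the same time. All 23 measured genes of that list were negative, against 46.9% of all genes, with a median of -1.07. With the block 16 fell, where 2.75% of all genes did, among them Cdk1 (-1.10 ± 0.14 SE, adjusted p = 0.0262), Mcm3 (-0.97 ± 0.13, 0.0292) and Aurka (-1.17 ± 0.16, 0.0292). Without the block none passed, and 20 were lower at an unadjusted p under 0.05, against 8.82% of all genes. In shControl, 2 of the 23 were highest in replicate 3, so that culture was not high in this list. The part of these lower proliferation genes in the values of Myc and Rrs1 was not tested.

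**Figure D4:**
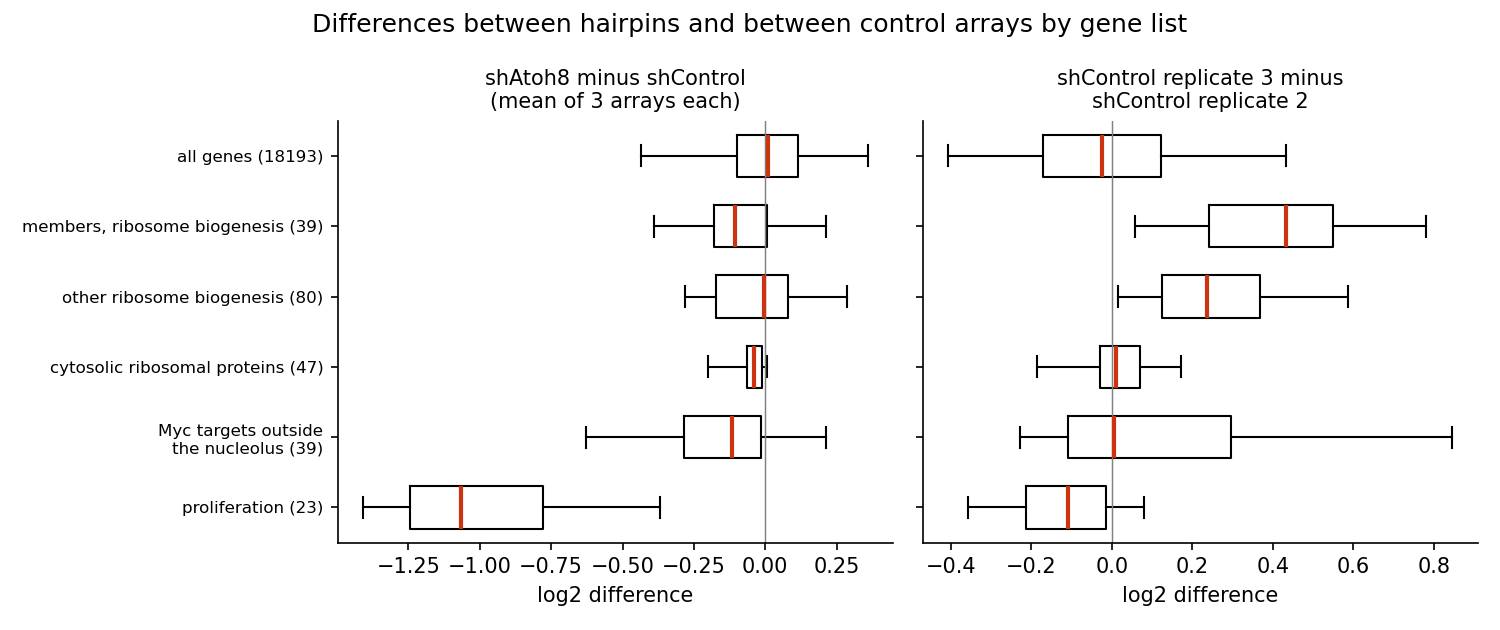
Log2 differences by gene list, with the number of genes in brackets: boxes span the quartiles, red lines are medians and whiskers run from the 5th to the 95th percentile. On the left, shAtoh8 minus shControl, the proliferation list lies far below 0 (median -1.07) and the biogenesis members close to it (-0.11); on the right, shControl replicate 3 minus replicate 2, the biogenesis members (0.43) and the other assembly genes (0.24) lie above 0.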

How the data were processed

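The deposited table holds 1 log2 value per probe set and array, made by the authors with RMA in the affy package, per the submitters' processing notes, which give no versions. RMA quantile-normalises the arrays, so a shift shared by most genes would be removed. Of 45101 probe sets, 64 controls were left out and 45037 tested with no brightness filter. Names came from the platform annotation (34945 probe sets with 1 symbol, 932 with several, 9160 with none). Symbols were checked through Entrez IDs against RefSeq (GRCm38.p6), and 0 changed. The number of arrays limits the precision.

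shAtoh8 was compared with shControl in limma 3.58.1 (R 4.3.3; lmFit and eBayes, degrees of freedom: 4 residual, 3.30 prior). P-values are two-sided and adjusted by Benjamini-Hochberg over all 45037 probe sets, with a threshold of 0.05. Errors are moderated standard errors. Deviations from group means correlated at 0.407, 0.187 and 0.433 between arrays of the same number and at -0.351 to 0.0292 otherwise. The main fit left the replicate number out, so its errors, p-values and intervals are unpaired. A second fit held that number as a block and so compared within pairs. Its value is given where a call or count changed or lay near the threshold. Every interval given is from the main fit. For Myc the moderated standard error was 0.296 in the main fit and 0.164 with the block. The members and lists were chosen with earlier results of these data known. Named were all Myc network genes; in each other role those past the threshold in either fit, the 2 with the smallest p and the most positive; and in each related list up to 3 past the threshold, else the 2 with the smallest p. Related lists held 260 entries, 221 measured; their members are described by counts and medians, with no list test. Alternatives covered normalization, brightness, variance model, array weights, probe set choice, the block and each array left out. The fit was tested on simulated arrays.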

Additional observations from a re-analysis of the deposited data

How the results depend on the processing

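Without the replicate block 1 member was lower and 0 higher; with the replicate block 2 were lower and 1 higher. Quantile normalization of the values again also gave 1 higher (Imp4, adjusted p = 0.0495). Leaving out each array in turn, 0 members passed lower and 0 higher in each of the 6 fits (over all 18193 genes 3, 0 and 21 passed without shControl replicate 1, 2 or 3 and 1, 117 and 41 without shAtoh8 replicate 1, 2 or 3, against 210 with every array), the number negative ran from 20 to 36 of 46, and the median from -0.21 to 0.02. Without both arrays numbered 1, 2 or 3 and with the block, fits added after the data were seen, 0, 2 and 0 passed lower, 0 passed higher, and 31, 34 and 21 were negative. Under array weights the median was -0.05. Leaving those 3 added fits aside, Rrs1 stayed negative in the other 14 alternatives and passed in 8, and Myc stayed negative in the 14 and passed in 1, the block. In the added fits both stayed negative and passed without the arrays numbered 2 (Myc -1.06, adjusted p = 0.0310; Rrs1 -1.41, 0.00796). Among named members that did not pass, the sign turned for Nop58, Nhp2, Mxd3, Nolc1, Nop56 and Ddx21 under at least 1 alternative, and for Fbl and Polr1a with the block and without both arrays numbered 3 (0.01 each). Besides Myc and Imp4, no named member gained or lost a call with the block. In the fit without the block, the 95% interval lay within 0.5 of 0 for 26 of the 39 measured biogenesis members (66.7%, against 73.7% of all genes). It reached further for the rest.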
